A study of Mus musculus with 6 samples.

Results

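Collagen genes were followed in whole prostates of mice with and without an AR3 transgene. The members were the genes whose only array symbol has the form Col, a number, the letter a and a number, such as Col1a1. They came to 44 genes, read by 46 probe sets, among 19938 genes that the array read through a probe set with 1 symbol. Col6a5 and Col6a6 had a second probe set, and the one with the higher mean over the 6 arrays stood for the gene. By type, 11 genes code for fibrillar collagens, 6 for the type IV collagens of basement membranes and 27 for other collagens. No expression difference entered the rule for membership, but the members and lists were chosen with earlier results of these data known.

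The study compared 3 AR3 transgenic mice with 3 wild-type littermates, all 4 weeks old, with 1 array per mouse. AR3 is the literature's name for a splice form of the androgen receptor that lacks the part that binds hormone. Of the transgene's promoter, the cell type that expresses it, the strain and the number of founder lines nothing was given in the labels used here. Mice are called wild-type 1 to 3 and transgenic 1 to 3 after their numbers in the labels.

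Collagens are secreted proteins whose chains wind into helical trimers, and a chain is useful to the cell only with its partners. Fibrillar collagens of types I, III and V form the cables of connective tissue and come mainly from fibroblasts and smooth muscle cells. Type IV collagens form the sheet on which epithelial, endothelial and muscle cells rest. The remaining collagens decorate fibrils, build beaded filaments or open networks, anchor epithelium or span the cell membrane. In the prostate, epithelial ducts lie on a basement membrane inside a stroma of smooth muscle and fibroblasts.

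Each value below is an intensity, a brightness on a linear scale without units, and tests used log2(intensity + 16). Every adjusted p for a gene is from limma, fitted over 28944 probe sets with Benjamini-Hochberg adjustment, and a gene was called at an adjusted p under 0.05. Changes are transgenic minus wild-type with their standard error. Olfactory receptor genes, taken as silent in prostate, gave a background scale: the 95th percentile of their 1035 probe sets lay between 66.9 and 91.9 over the 6 arrays. It was lowest in wild-type 1 and highest in wild-type 3. The secretory genes Pbsn, Tgm4 and Msmb were bright on every array, with means of 9343, 14092 and 11166 in wild-type and 8078, 14757 and 7840 in transgenic mice. Sbp, the spermine-binding protein and the other measured gene of this list, was bright too and was called lower. It went from 7752 ± 658 to 4107 ± 142 (SD, n = 3 each), a log2 change of −0.91 ± 0.09 (limma, adjusted p = 0.0017). Msmb and Pbsn were also lower in every transgenic mouse than in any wild-type mouse, with changes of −0.52 ± 0.14 and −0.21 ± 0.07. Neither was called (limma, adjusted p = 0.18 and 0.31), and Tgm4 had overlapping groups. At an unadjusted p under 0.05 by limma, 3 of these 4 genes were lower (75%, against 12.2% of all genes). Of 7 genes known from the adjoining seminal vesicle, several differed widely between mice of 1 genotype. Their summed intensity was 4501, 228 and 274 in wild-type 1, 2 and 3 and 3437, 1874 and 9437 in transgenic 1, 2 and 3. The mean log2 level of Svs2, Svs4 and Svs5 was 10.05, 5.36 and 5.42 in wild-type 1, 2 and 3, and 7.53, 5.53 and 10.54 in transgenic 1, 2 and 3. The other genes of the list differed in pattern. Spinkl rose, with 40.6, 15.2 and 18.4 in wild-type and 905, 474 and 639 in transgenic mice, a log2 change of 4.08 ± 0.28 (limma, adjusted p = 2.8e-04). Pate4 had 942, 25.2 and 36.7 in wild-type and 1782, 1203 and 3027 in transgenic mice without overlap (limma, adjusted p = 0.20). Svs1 and Svs6 were highest in wild-type 3, and they passed the background scale on 1 and 0 arrays. By the sum over the list and by the mean of Svs2, Svs4 and Svs5, wild-type 1 and transgenic 3 were highest in their genotype, so results are also given without both of them. Precision is limited throughout by having 3 arrays of each genotype.

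Of the 44 collagen genes, 1 was called, and it was higher in transgenic prostates: Col8a1, a chain of the network-forming type VIII collagen. Over all genes 1.64% were called, 1.18% higher and 0.456% lower. At an unadjusted p under 0.05, 8 collagen genes were higher and 1 was lower, together 20.5% of the members against 12.2% of all genes (6.91% higher and 5.27% lower). With single arrays left out this count of 9 ran from 2 without transgenic 3 (4.55% of the members, 7.74% of all genes) to 14 without wild-type 1 (31.8% and 16.2%). Groups did not overlap for 7 of 44 collagen genes (15.9%), 5 higher and 2 lower, against 19.1% of all genes (10.5% higher and 8.61% lower). The median log2 change of the 44 genes was 0.02, beside 0.01 over all genes, and it was −0.01 after quantile normalization and after median centring of the arrays. It was −0.09 without wild-type 1, where the median of all genes was −0.02. Changes ran from −0.29 for Col4a6 to 0.88 for Col6a5. A positive change was found in 24 members and a negative one in 20. These tissues are mixtures, so fewer cells of a type and less RNA per cell cannot be told apart in any value here.

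**Figure D1:**
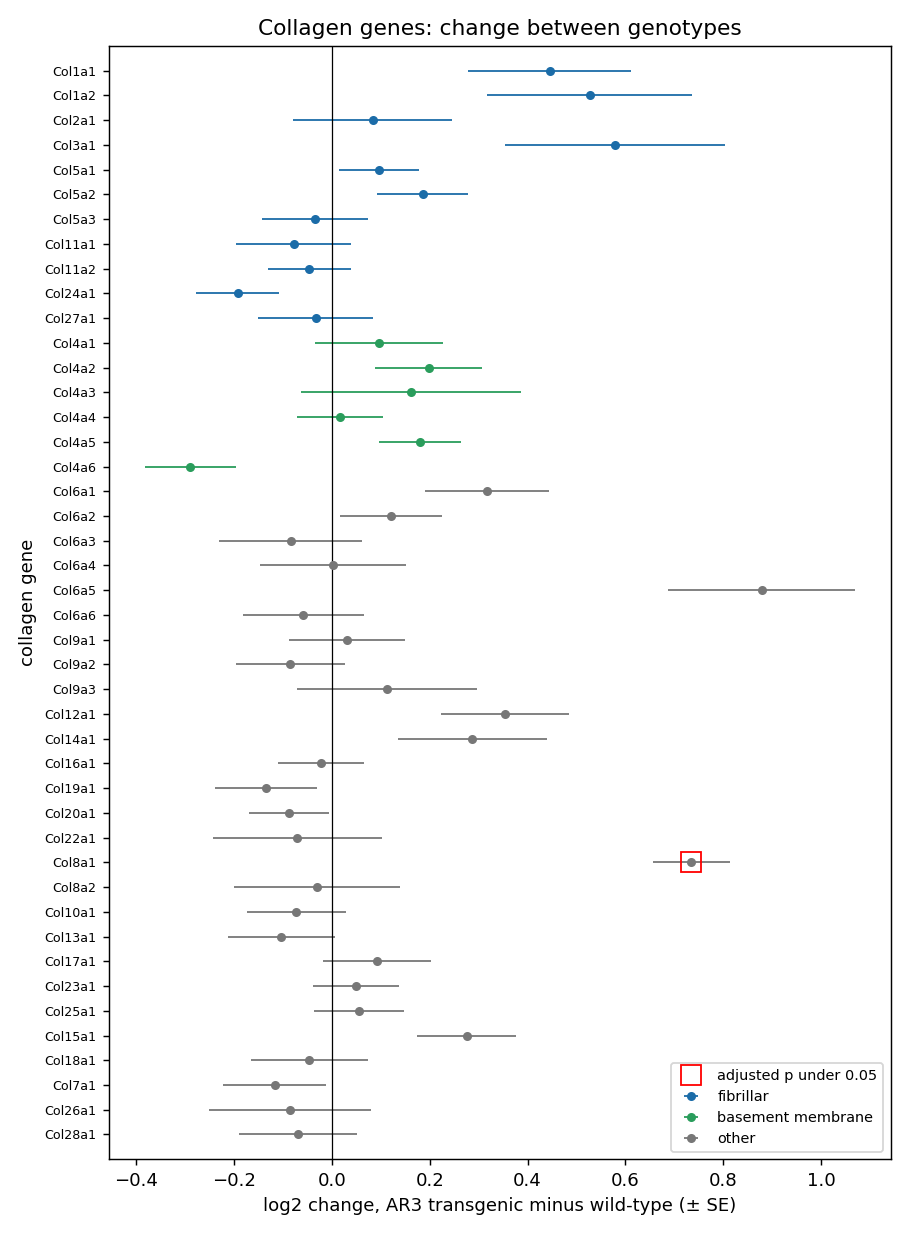
Log2 change of each of the 44 collagen genes, transgenic minus wild-type, on the x axis with its standard error as a bar, with genes on the y axis coloured by type. A red square marks Col8a1, the gene called at an adjusted p under 0.05, and Col6a5 has the largest change with a wider bar.

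Col8a1 codes for a chain of type VIII collagen, a short-chain collagen of open networks that is known from vessel walls and from the membrane under the corneal endothelium. Its intensity was 61.7, 60.0 and 63.97 in wild-type 1, 2 and 3 and 110.2, 123 and 108 in transgenic 1, 2 and 3. Every transgenic mouse lay above every wild-type mouse, and each genotype kept to a narrow range. The means were 61.9 ± 2.00 and 113.7 ± 8.37 (SD, n = 3 each), a log2 change of 0.73 ± 0.08 (limma, adjusted p = 0.0034). All wild-type values lay below the background scale of their arrays and all transgenic values above it, so the added constant sets part of the size. With an added constant of 1 the log2 change was 0.87, and with 64 it was 0.50. Col8a1 was called in all 16 alternative settings tried, with an adjusted p by limma between 7.4e-04 and 0.048. Without both wild-type 1 and transgenic 3 the change was 0.77 (limma, adjusted p = 0.048).

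Its partner Col8a2, whose product joins Col8a1 or forms trimers of its own, had intensities of 109, 144 and 178 in wild-type mice and 117, 143 and 157 in transgenic mice. The groups overlapped across their whole range, with a log2 change of −0.03 ± 0.17 (limma, adjusted p = 0.97). Another short-chain member, Col10a1, the type X collagen of growth cartilage, lay below the background scale on all 6 arrays, between 55.5 and 74.5.

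The 300 bases around the Col8a1 start, 250 before it and 50 after it, are shown because this was the gene called. They are from RefSeq, build GRCm38.p6, read 5′ to 3′ on the gene's own strand, and capitals mark matches to 4 motifs on either strand. The motif TATAAA places the start of transcription in many promoters that have it. The letters CCAAT are bound by the nuclear factor Y family. The GC box, spelled GGGCGG, is bound by Sp family proteins. The half-site of the androgen receptor's response element was searched for as TGTTCT. None of these motifs contains another.
Col8a1, chr16:57754688-57754987, minus strand: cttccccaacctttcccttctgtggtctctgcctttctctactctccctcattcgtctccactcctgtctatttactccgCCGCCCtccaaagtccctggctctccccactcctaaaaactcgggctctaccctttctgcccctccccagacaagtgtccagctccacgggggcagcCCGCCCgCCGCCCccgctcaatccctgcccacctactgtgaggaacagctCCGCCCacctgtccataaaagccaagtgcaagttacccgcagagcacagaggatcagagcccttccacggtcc

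This window held 4 matches to the GC box, all on the opposite strand, and none to the other motifs. Promoter windows were at hand for 35 of the 44 collagen genes, 38 windows in all because some genes have several starts. GGGCGG was in 23 of the 38 (60.5%) against 35.7% of 32851 windows of all genes. CCAAT was in 34.2% against 37.4%, and TATAAA in 13.2% against 13.6%. TGTTCT was in 2 of the 38 windows (5.26%), those of Col9a1 and Col20a1, against 19% of all windows. Windows differ in base composition and some genes have several, so these shares are descriptions, and a match is no proof of binding.

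Markers of the cells that can make type VIII collagen were set beside it. Of 8 endothelial markers, Cdh5, the cadherin of endothelial junctions, was called higher. Its intensity was 107, 86.3 and 75.5 in wild-type mice and 168, 199 and 187 in transgenic mice, with a log2 change of 0.93 ± 0.12 (limma, adjusted p = 0.0096). The other 7 markers were not called, and Pecam1, for example, had a change of 0.15 ± 0.11. At an unadjusted p under 0.05 by limma, 2 of the 8 were higher, Cdh5 and Tek (25%, against 12.2% of all genes). Summed over the 8 markers, Cdh5 included, intensity ran from 775.6 to 948 in wild-type and from 1002 to 1054 in transgenic mice. Because Cdh5 is part of this sum, the separation says nothing separate about the other 7. Each of the other 7 had overlapping groups, with changes from −0.04 for Tie1 to 0.32 for Tek. None of 8 smooth muscle markers was called, and 0 had an unadjusted p under 0.05. Their sum ran from 13730 to 16540 in wild-type and from 12940 to 17430 in transgenic mice. The part of either cell type in the Col8a1 result was not tested.

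**Figure D2:**
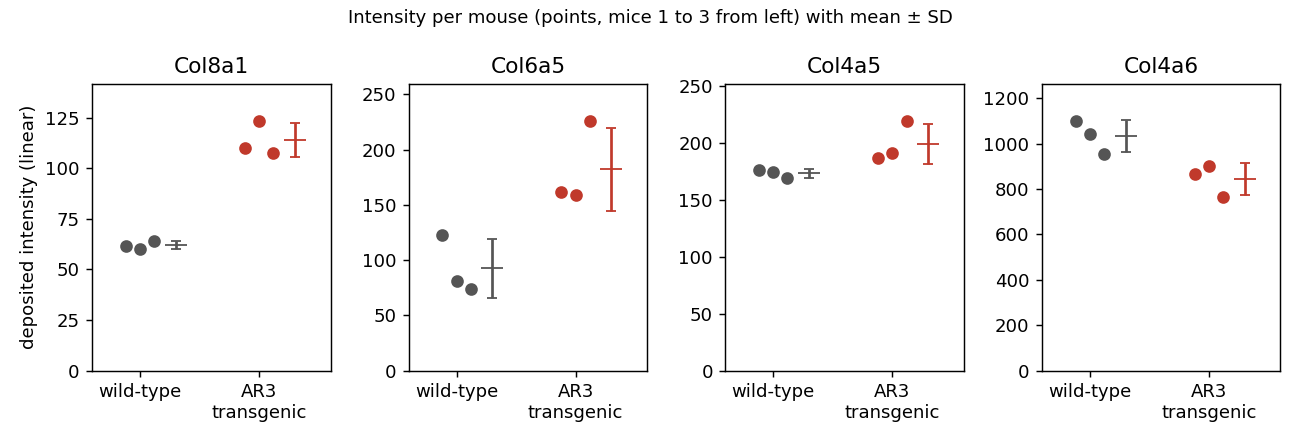
Deposited intensity on a linear y axis that starts at 0, for Col8a1, Col6a5, Col4a5 and Col4a6, with 1 point per mouse and the mean ± SD of 3 mice beside the points. The genotypes do not overlap in any of the panels, with transgenic mice higher for Col8a1, Col6a5 and Col4a5 and lower for Col4a6.

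Among the fibrillar collagens none of 11 genes was called, and Col1a1, Col1a2 and Col3a1, the 3 with an unadjusted p under 0.05, all had higher transgenic means. These code for both chains of type I collagen and for type III collagen, which lie together in the same fibrils. The median log2 change of the 11 genes was 0.08. It was −0.08 without wild-type 1, −0.06 without both wild-type 1 and transgenic 3 and 0.07 without transgenic 3 alone, so its sign rests on wild-type 1.

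Col1a1 had intensities of 584, 530.2 and 423 in wild-type 1, 2 and 3 and 583, 673 and 865 in transgenic 1, 2 and 3. Wild-type 1 and transgenic 1 were level, and transgenic 3 was highest. The means were 513 ± 82.0 and 707 ± 144 (SD, n = 3 each), a log2 change of 0.45 ± 0.17 (limma, adjusted p = 0.34). Col1a2 lay at 879.9, 661 and 550.5 in wild-type and 809.8, 939.7 and 1288 in transgenic mice. Here wild-type 1 lay above transgenic 1, so the groups overlapped, and the log2 change was 0.53 ± 0.21 (limma, adjusted p = 0.37). Col3a1 showed the same order of mice at its ends, with 695, 506 and 423 in wild-type and 698, 676 and 1082 in transgenic mice. Wild-type 3 was lowest and transgenic 3 highest for all 3 genes.

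The log2 change of Col3a1 was 0.58 ± 0.22 (limma, adjusted p = 0.36). It was 0.36 without transgenic 3 and 0.77 without wild-type 1. Without both arrays it was 0.55 ± 0.12 (limma, adjusted p = 0.18), and on the same 4 arrays Col1a1 and Col1a2 had changes of 0.39 ± 0.14 and 0.52 ± 0.13. None of the 3 genes was called in any of the 16 alternatives, where the lowest adjusted p by limma was 0.094, for Col3a1.

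The promoter windows of Col1a2 and Col3a1 are shown because these genes varied together over the mice, with the same build, strand rule and capitals as above. The tables hold no window for Col1a1.
Col1a2, chr6:4505368-4505667, plus strand: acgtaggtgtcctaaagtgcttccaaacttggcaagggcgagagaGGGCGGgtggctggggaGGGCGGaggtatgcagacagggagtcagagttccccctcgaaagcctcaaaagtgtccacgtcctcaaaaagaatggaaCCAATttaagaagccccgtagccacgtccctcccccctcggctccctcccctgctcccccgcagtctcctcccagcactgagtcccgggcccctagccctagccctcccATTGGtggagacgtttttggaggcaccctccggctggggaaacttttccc
Col3a1, chr1:45311288-45311587, plus strand: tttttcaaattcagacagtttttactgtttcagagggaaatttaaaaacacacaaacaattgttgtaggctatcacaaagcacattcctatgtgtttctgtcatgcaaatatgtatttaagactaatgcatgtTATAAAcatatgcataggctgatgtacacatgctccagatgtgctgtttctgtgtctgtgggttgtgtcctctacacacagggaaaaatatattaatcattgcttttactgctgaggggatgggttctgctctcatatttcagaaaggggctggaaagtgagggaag

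The Col1a2 window held 2 matches to CCAAT, 1 on each strand, and 2 to the GC box. The Col3a1 window held 1 match to TATAAA and none to the other motifs. These windows shared none of the 4 motifs.

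Type V collagen, which sits inside type I fibrils and limits their width, was read by 3 genes. Col5a2 had intensities of 98.8, 91.1 and 93.0 in wild-type and 103, 102 and 125 in transgenic mice. Its groups did not overlap, with a log2 change of 0.19 ± 0.09 (limma, adjusted p = 0.48). Col5a1 lay between 112 and 131 in wild-type and between 126 and 136 in transgenic mice, a change of 0.10 ± 0.08. Col5a3 had overlapping groups and a change of −0.03 ± 0.11. Col5a2 lies beside Col3a1 in the genome, and the pair was compared within each mouse, with log2 of Col5a2 minus log2 of Col3a1 shifted by −0.39 in transgenic against wild-type mice (exact permutation test, two-sided, p = 0.3, or 0.5 adjusted over 5 neighbouring pairs).

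The other fibrillar genes are known from cartilage (Col2a1, Col11a1 and Col11a2) or as minor fibrillar collagens (Col24a1 and Col27a1). Col24a1 had the lowest change after Col4a6, with 128, 145 and 153 in wild-type and 122, 119 and 125 in transgenic mice. Its groups did not overlap, and the change was −0.19 ± 0.08 (limma, adjusted p = 0.42). Col2a1, Col11a1, Col11a2 and Col27a1 had changes between −0.08 and 0.08, and each was lowest of all arrays in wild-type 1. In Col11a1, 2 of the 6 arrays lay under the background scale. Of 6 cartilage markers, Acan, Matn1, Matn3 and Hapln1 lay under it on every array, and Sox9 and Chad lay above it on all 6. Sox9, a transcription factor, had means of 570 ± 78.8 and 567 ± 16.1 (SD, n = 3 each). Chad, the matrix protein chondroadherin, rose from 141, 141 and 142 in wild-type 1, 2 and 3 to 576, 545 and 540.1 in transgenic 1, 2 and 3, a log2 change of 1.86 ± 0.07 (limma, adjusted p = 1.1e-05).

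**Figure D3:**
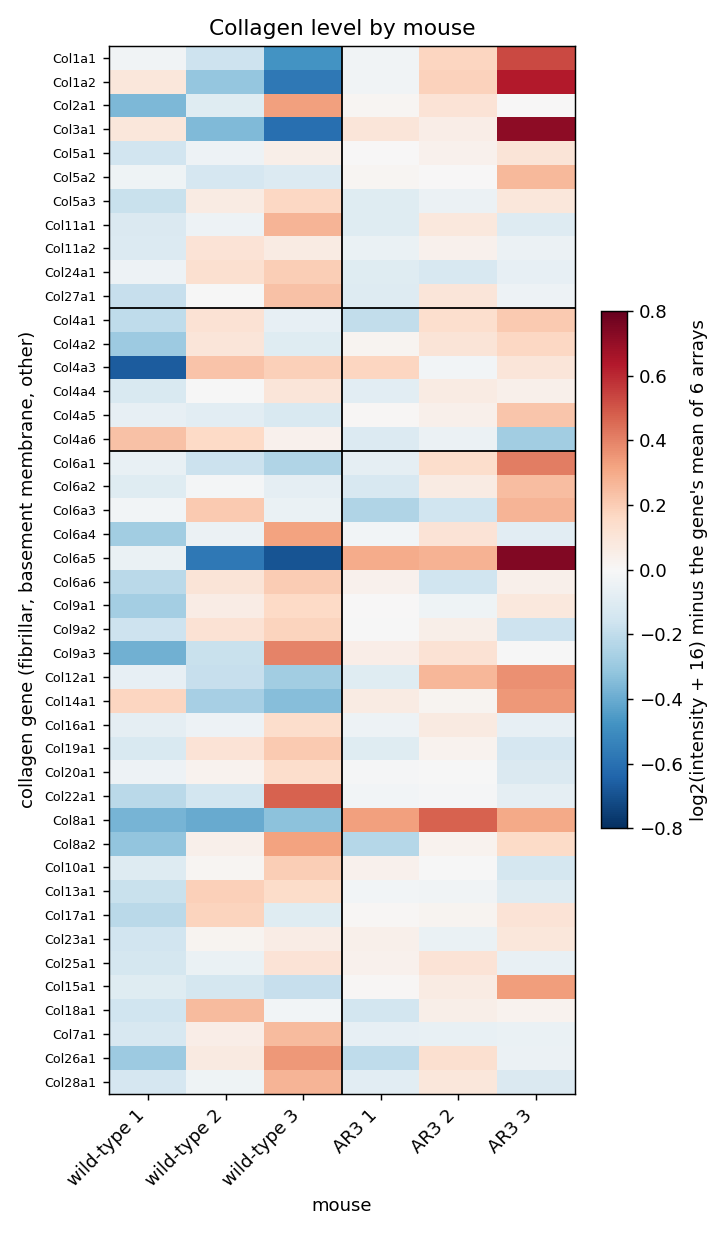
Log2(intensity + 16) of the 44 collagen genes (rows; fibrillar, basement membrane and other, split by lines) in each mouse (columns), minus the gene's mean over the 6 arrays, red for above and blue for below. Col1a1, Col1a2, Col3a1 and Col6a5 are darkest blue in wild-type 3 and darkest red in transgenic 3, whereas Col8a1 separates the genotypes evenly.

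The order of the mice differed among the members. Wild-type 1 was the highest of the wild-type mice in 11 of the 44 genes (25%), a share like the 25.2% of all genes. These were Col1a1, Col1a2, Col3a1, Col5a2, Col4a5, Col4a6, Col6a1, Col6a5, Col12a1, Col14a1 and Col15a1. Wild-type 1 was the lowest of them in 31 genes (70.5%), against 50.1% of all genes. The background scale was also lowest in wild-type 1 (66.9, beside 77.4 and 91.9 in wild-type 2 and 3), and its part in that share was not tested. Transgenic 3 was the highest of all 6 mice in 16 collagen genes (36.4%), against 14.5% of all genes. Wild-type 3 was the highest of all 6 in more of them, 20 of the 44, against 5945 of all 19938 genes.

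Fibroblast markers were set beside the type I and type III collagens. The mean log2 level of 10 markers was 7.67, 7.25 and 7.31 in wild-type 1, 2 and 3 and 7.53, 7.65 and 7.89 in transgenic 1, 2 and 3. Wild-type 1 stood above the other wild-type mice, and transgenic 3 stood highest. Pdgfra, a receptor that marks fibroblasts, had the largest change of the 10, with 229, 125 and 139 in wild-type and 219, 243 and 351 in transgenic mice. The markers did not all share this order. S100a4 and Fap had changes of −0.13 and −0.05, were highest in wild-type 3 and lay below the background scale on every array. Thy1 was highest in wild-type 2 and transgenic 2 within their genotypes, and Lum passed the background scale on 2 arrays. None of the 10 markers was called, and 2, Pdgfra and Fbln2, had an unadjusted p under 0.05, both higher (20%, against 12.2% of all genes). Fbln2 had 140, 118 and 139 in wild-type and 155, 188 and 189 in transgenic mice, a change of 0.38 ± 0.10 (limma, adjusted p = 0.19). Its groups did not overlap, whereas those of every other marker in the list did. The summed intensity ran from 3467 to 4552 in wild-type and from 4192 to 5599 in transgenic mice. Within their genotypes, wild-type 1 and transgenic 3 also had the highest summed intensity of the 7 seminal vesicle genes, though Spinkl and Pate4 were higher in every transgenic mouse than in wild-type 1. The part of fibroblast content and of adjoining tissue in the type I and type III values was not tested.

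**Figure D4:**
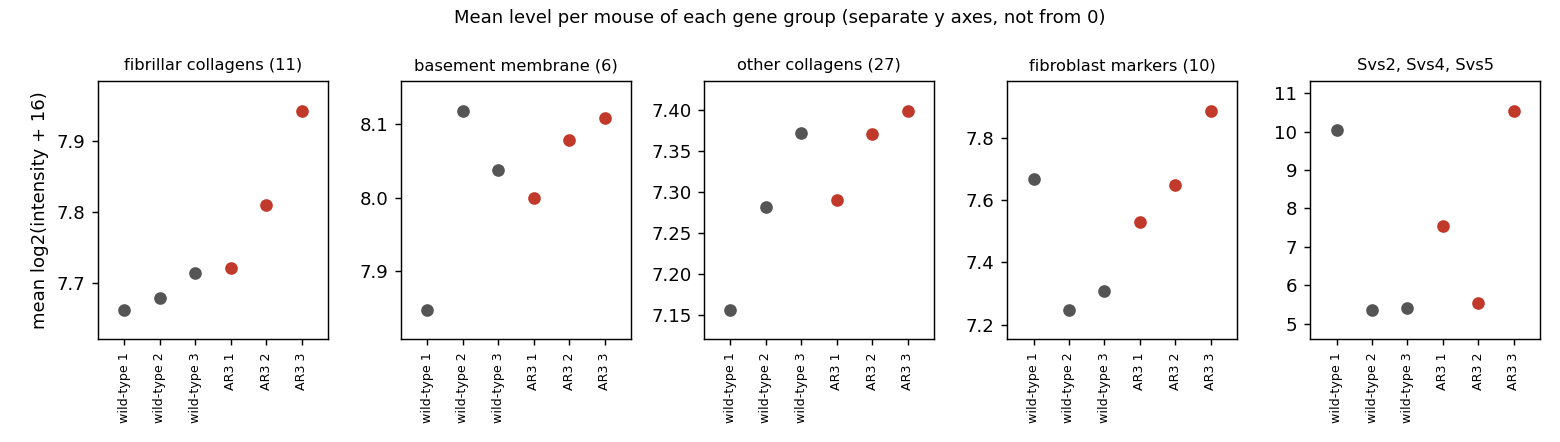
Mean log2(intensity + 16) per mouse, on separate y axes that do not start at 0, of the 11 fibrillar, 6 basement membrane and 27 other collagen genes, of 10 fibroblast markers and of Svs2, Svs4 and Svs5. Transgenic 3 is highest for fibrillar collagens (7.94), fibroblast markers (7.89) and the Svs genes (10.54), and wild-type 1 is lowest for all the collagen types. Wild-type 1 was also lowest in the mean over all genes, not drawn here (7.26, against 7.33 to 7.38 in the other mice).

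Among the type IV collagens of basement membranes none of 6 genes was called, and 1, Col4a6, had an unadjusted p under 0.05. The median log2 change of the 6 was 0.13, and it was −0.01 without wild-type 1. Genes of type IV collagen lie in head-to-head pairs, Col4a1 with Col4a2, Col4a3 with Col4a4 and Col4a5 with Col4a6, and each pair is known to share the region between its starts.

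Col4a1 and Col4a2 make the trimer found in nearly every basement membrane. Col4a1 had intensities of 209.9, 265 and 232 in wild-type and 209.9, 269 and 283 in transgenic mice. Col4a2 had 266, 352 and 306 in wild-type and 334, 355 and 372 in transgenic mice. Wild-type 1 was the lowest mouse for both (level with transgenic 1 for Col4a1), the groups overlapped, and the changes were 0.10 ± 0.13 and 0.20 ± 0.11, with adjusted p of 0.82 and 0.52 by limma. The sign of the Col4a1 change turned to −0.06 without both wild-type 1 and transgenic 3.

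Col4a3 and Col4a4 belong to the network known from kidney filters. Col4a3 had 88.8 in wild-type 1 and lay between 147 and 179 in the other 5 mice. Its change of 0.16 ± 0.22 turned to −0.13 without wild-type 1. Col4a4 lay between 88.1 and 105 in all mice, with a change of 0.02 ± 0.09 that turned negative under both other normalizations.

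Col4a5 and Col4a6 make a trimer that is known from epithelial and smooth muscle basement membranes. Col4a6 had intensities of 1099.8, 1044 and 957 in wild-type 1, 2 and 3 and 864, 900.0 and 766 in transgenic 1, 2 and 3. Every transgenic mouse lay below every wild-type mouse. The means were 1033 ± 72.2 and 844 ± 69.2 (SD, n = 3 each), a log2 change of −0.29 ± 0.09, the lowest of the 44 genes (limma, adjusted p = 0.27). In the alternatives its change ran from −0.34 to −0.18, negative in all, and its adjusted p by limma from 0.079 to 0.66.

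Col4a5 went the other way, with 177, 175 and 169 in wild-type and 187, 191 and 219 in transgenic mice. These groups did not overlap either, and the change was 0.18 ± 0.08 (limma, adjusted p = 0.45). Log2 of Col4a6 minus log2 of Col4a5 within a mouse was 2.53, 2.48 and 2.39 in wild-type and 2.12, 2.14 and 1.73 in transgenic mice. This difference was smaller in every transgenic mouse, with a mean shift of −0.47 (exact permutation test, two-sided, p = 0.1, the smallest that 3 against 3 allows, and 0.25 adjusted over 5 neighbouring pairs). Since neither gene's groups overlapped and their changes had opposite signs, this outcome was fixed in advance. The test thus adds nothing to the values of the single genes. For Col4a1 with Col4a2 and Col4a3 with Col4a4 the same comparison gave 0.10 and −0.15 (exact permutation test, two-sided, p = 0.5 and 0.8, or 0.625 and 0.8 adjusted). The pairs were chosen with the values known.

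The windows of the Col4a5 and Col4a6 starts are shown because the neighbours differed in opposite directions, again with the build, strand rule and capitals given above. They lie on opposite strands with 842 bases between the windows, whereas the windows of Col4a1 and Col4a2 share 78 bases.
Col4a5, chrX:141475169-141475468, plus strand: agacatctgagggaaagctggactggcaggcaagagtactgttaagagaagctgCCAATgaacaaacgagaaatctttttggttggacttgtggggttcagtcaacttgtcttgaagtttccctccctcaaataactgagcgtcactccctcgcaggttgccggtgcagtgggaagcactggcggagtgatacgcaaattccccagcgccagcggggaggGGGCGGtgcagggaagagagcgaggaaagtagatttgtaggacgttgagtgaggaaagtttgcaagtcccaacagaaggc
Col4a6, chrX:141474027-141474326, minus strand: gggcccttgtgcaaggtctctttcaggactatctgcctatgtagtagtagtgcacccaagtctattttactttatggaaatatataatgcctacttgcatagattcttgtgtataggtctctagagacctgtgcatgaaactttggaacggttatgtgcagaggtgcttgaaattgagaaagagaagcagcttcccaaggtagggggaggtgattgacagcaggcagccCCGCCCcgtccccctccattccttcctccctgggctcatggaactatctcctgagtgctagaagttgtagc

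Each of the 2 windows held 1 match to the GC box, and the Col4a5 window also held 1 to CCAAT. Neither held TATAAA or TGTTCT.

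Type VI collagens, which form beaded filaments around cells, had 6 genes, of which none was called. Col6a5 had the largest change of all 44 genes, with intensities of 123, 81.2 and 73.7 in wild-type 1, 2 and 3 and 162, 159 and 226 in transgenic 1, 2 and 3. All transgenic mice lay above all wild-type mice, with wild-type 1 nearest to them. The means were 92.7 ± 26.7 and 182.3 ± 37.8 (SD, n = 3 each), a log2 change of 0.88 ± 0.19 (limma, adjusted p = 0.091). Its value in wild-type 3 was below the background scale of that array. The adjusted p by limma was 0.022 without wild-type 1, where the change was 1.07, and 0.020 without both wild-type 1 and transgenic 3. It was also under the threshold with array weights (0.011) and with robust variances fitted on an intensity trend (0.031), and it reached 0.31 without transgenic 3.

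A second probe set of Col6a5 was dimmer, with 83.2, 76.0 and 98.4 in wild-type and 93.9, 108 and 124 in transgenic mice. Its groups overlapped, and its change of 0.29 ± 0.12 had the same sign but a smaller size (adjusted p 0.39 by limma). The mean of both probe sets had a change of 0.58 (limma, adjusted p = 0.0965).

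The chains of the common type VI trimer are Col6a1, Col6a2 and Col6a3. Col6a1 had 261, 241 and 229 in wild-type and 259, 304 and 368 in transgenic mice, a change of 0.32 ± 0.13 (limma, adjusted p = 0.37). Its order of mice was that of Col1a1, with wild-type 3 lowest and transgenic 3 highest. Col6a2 had 232, 247 and 236 in wild-type and 227, 261 and 298 in transgenic mice, a change of 0.12 ± 0.10. Log2 of Col6a2 minus log2 of its neighbour Col6a1 shifted by −0.20 (exact permutation test, two-sided, p = 0.1, or 0.25 adjusted over 5 pairs). Col6a3 had 285, 338 and 279 in wild-type and 243, 258 and 354 in transgenic mice, a change of −0.08 ± 0.15 that turned to 0.01 without transgenic 1. Transgenic 3 was the highest mouse for each of the 3 chains. Col6a4 and Col6a6, chains related to that of Col6a3, had changes of 0.00 ± 0.15 and −0.06 ± 0.12, and Col6a4 was above the background scale on 2 of 6 arrays.

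Fibril-associated collagens coat or bridge fibrils, and none of their 9 genes was called. Col12a1, which bridges type I fibrils, had 122, 111 and 103 in wild-type and 119, 158 and 169 in transgenic mice, with a change of 0.35 ± 0.13 (limma, adjusted p = 0.33). The related Col14a1 had 142, 101 and 94.9 in wild-type and 130.5, 126 and 162 in transgenic mice, with a change of 0.29 ± 0.15 (limma, adjusted p = 0.51). In both, wild-type 1 was highest among the wild-type mice and transgenic 3 was highest of all, and the groups overlapped. Without transgenic 3 these changes were 0.26 and 0.19. Col19a1 had a change of −0.13 ± 0.10, with overlapping groups, and passed the background scale on 1 array. The other 6, namely Col9a1, Col9a2, Col9a3, Col16a1, Col20a1 and Col22a1, had changes between −0.09 and 0.11 and overlapping groups.

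Multiplexins sit in the basement membrane zone of vessels and epithelia. Col15a1 had 148, 143 and 138 in wild-type and 160.3, 168 and 205 in transgenic mice. The groups did not overlap, with transgenic 3 highest, and the change was 0.28 ± 0.10 (limma, adjusted p = 0.33). Col18a1, the source of the fragment endostatin, had 167, 228 and 186 in wild-type and 169.6, 196 and 194 in transgenic mice, with a change of −0.05 ± 0.12 that turned to 0.07 without wild-type 2 and 0.02 without transgenic 1.

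Collagens that tie epithelium to its bed differed little. Col7a1, the anchoring fibril collagen, had 129, 149 and 173 in wild-type and 136, 136 and 137 in transgenic mice. The transgenic mice lay within the wild-type range, with a change of −0.12 ± 0.10 (limma, adjusted p = 0.71). Col17a1, a membrane-spanning collagen of hemidesmosomes, had 197, 264 and 215 in wild-type and 233, 236 and 251 in transgenic mice, with a change of 0.09 ± 0.11. The other membrane-spanning collagens, Col13a1, Col23a1 and Col25a1, had changes between −0.10 and 0.06, and none of the 4 was called. Col26a1 and Col28a1 had changes of −0.09 ± 0.17 and −0.07 ± 0.12, and Col28a1 lay below the background scale on all arrays.

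The genes that modify, trim, crosslink and bind collagen were taken from a list of 46, of which 42 were measured. None was called, while 4 higher and 3 lower genes had an unadjusted p under 0.05, together 16.7% against 12.2% of all genes, and the median log2 change was 0.04. With array weights 2 were called, both higher. Of 21 maturation genes, 1 was higher and 3 were lower at an unadjusted p under 0.05. Serpinh1, the collagen chaperone of the endoplasmic reticulum, had 192, 204 and 219 in wild-type and 223, 247 and 273 in transgenic mice. Its groups did not overlap, with a change of 0.25 ± 0.10 (limma, adjusted p = 0.34). P4ha1, a catalytic subunit of the prolyl hydroxylase that stabilises the helix, had 394, 325 and 504 in wild-type and 309, 294 and 312 in transgenic mice. Its change was −0.38 ± 0.15 (limma, adjusted p = 0.35), so the chaperone and the hydroxylase subunit had opposite signs.

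Adamts3, a protease that removes the front propeptide of fibrillar procollagens, had the smallest p of the list. Its intensity was 109, 123 and 148 in wild-type and 169, 174 and 169 in transgenic mice, with no overlap. The change was 0.40 ± 0.11 (limma, adjusted p = 0.18), and 0.06 when all probe sets of the gene were averaged. It was called with array weights (adjusted p 0.026) and without wild-type 3 (0.048). None of 5 crosslinking genes had an unadjusted p under 0.05, among them Lox, the lysyl oxidase. Of 9 receptors, 2 did (22.2%, against 12.2% of all genes), both higher, namely Mrc2 and Lair1. Mrc2 had 120, 116 and 104 in wild-type and 146, 127 and 127 in transgenic mice, above the background scale on all 6 arrays. Its groups did not overlap, and its change was 0.21 ± 0.09 (limma, adjusted p = 0.39). Lair1, an inhibitory collagen receptor of leukocytes, had 24.8, 23.0 and 29.8 in wild-type and 37.0, 33.5 and 33.3 in transgenic mice. All values of Lair1 lay below the background scale, and its change was 0.28 ± 0.09 (limma, adjusted p = 0.26).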

How the data were processed

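Total RNA of dissected prostates was labelled for Affymetrix whole-transcript arrays, per the labels' protocols. The deposited table holds 1 intensity per probe set and array on a linear scale; how the authors summarised and normalized it is not stated in the labels used here. The deposited intensities had nearly equal upper quantiles on all arrays and were not normalized again. Their medians were less equal, from 94.5 in wild-type 1 to 110.8 in wild-type 3, and many collagens lay near that range. Of 35512 probe sets, 6568 were left out as controls by their identifiers, which precede those of the array's genes, from knowledge of the platform. Symbols came from the platform annotation (21789 probe sets with 1 symbol, 1621 with several, 5534 with none here), and 19919 of 19938 genes were found in the RefSeq table of GRCm38.p6.

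Log2(intensity + 16) of 3 transgenic and 3 wild-type arrays was compared in R 4.3.3 by limma 3.58.1 (moderated test after lmFit and eBayes, two-sided, no covariate), with Benjamini-Hochberg adjustment. On simulated data of the same size, 82 of 100 probe sets changed by 1 on the log2 scale and 27 of 100 changed by 0.5 were called, with 6 false calls. The noise was drawn separately for each probe set, with its observed spread within genotypes taken as its true spread. These shares hold for that setting and the number of changes made in it, and the real data can differ. The labels name each sample as a separate mouse. The members and lists were chosen with earlier results of these data known. Named genes were 20 collagens given by symbol, every called collagen, the 4 largest rises and 4 largest falls, and the 4 list genes with the smallest p. Other members are named to complete their type, and Lox and Mrc2 to complete the account of the list. Alternatives were quantile normalization, median centring, added constants of 1 and 64, leaving out the dimmest 40% of probe sets, a variance trend, array weights, the mouse number as a block, the mean over a gene's probe sets and each array left out; leaving out both wild-type 1 and transgenic 3 was chosen after seeing the data. Same-numbered mice did not deviate together (correlations of −0.04, 0.05 and −0.16), so the mouse number was not taken as pairing.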

Additional observations from a re-analysis of the deposited data

How the results depend on the processing

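Of the 44 collagens, Col8a1 was called in each of the 16 alternatives. Col6a5 joined it, making 2, with an intensity trend and robust variances, with array weights, without wild-type 1 and without both wild-type 1 and transgenic 3 (chosen after seeing the data). The count thus ran from 1 to 2 with single arrays left out, and none was called lower. The cause of these moves was not tested.

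Called probe sets over the whole table numbered 425 (305 higher, 120 lower). They were 678 with trend and robust variances, 1202 with array weights, 237 without both arrays and 234 to 519 without single arrays. Median centring gave 314 higher and 264 lower. A replicate block on the mouse number gave 250 and changed no call on a collagen.

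Of the 42 maturation, crosslinking and receptor genes, 2 were called with array weights and 0 to 1 without single arrays. The median change ran from −0.0758 to 0.144 for fibrillar and from −0.0091 to 0.182 for basement membrane collagens without single arrays, and was −0.0551 and −0.0574 without both.

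No gene that turned sign was called. Col4a4 was −0.0211 with quantile normalization, −0.0216 with median centring, −0.0567 without both arrays and −0.0393 to 0.0693 without single arrays. Col4a3 and Col17a1 were −0.0563 and −0.0494 with array weights and −0.1361 and −0.0235 without both, where Col4a1 was −0.0582. Without single arrays Col4a3 ran from −0.1291 to 0.3171, Col18a1 from −0.138 to 0.0689 and Col6a3 from −0.2422 to 0.0149. The dimmest 40% of probe sets held collagens too, leaving 41 of 44 tested. In the simulated data 27 of 100 changes of 0.5 on the log2 scale were called. Changes of that size thus often missed the threshold there, with 3 arrays per genotype. The simulated noise had no part shared over an array, so the share in the real data can differ.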
